A study of Mus musculus with 8 samples.

Results

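The genes of the translation factors were analysed in the RNA of cardiac fibroblasts with and without a deletion of *Lmna*, the gene of the nuclear lamina proteins lamin A and C. The members were the listed genes whose symbol starts with *Eif* or *Eef* and a digit, together with *Etf1* and the *Gspt* genes, which encode the release factors. The rule found 71 of 18957 listed genes, 67 translation factors and related proteins and 4 kinases that act on eIF2, and the kinases are described apart. All 71 matched 1 protein-coding entry each in GENCODE release M21 on GRCm38. The filter on low counts kept 13036 genes, among them 65 of the 67 factors and all 4 kinases.

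The cells came from the ventricles of mice aged 3 to 4 weeks on a C57BL/6 (mixed) background. They had been sorted as live cells, stained for PDGFRA and negative for hematopoietic lineage markers, with 1 mouse for each of 4 WT and 4 Pdgfra-Cre:LmnaF/F libraries. The Pdgfra-Cre:LmnaF/F mice carried a BAC transgene with Cre under the control of *Pdgfra* and floxed *Lmna* alleles, and the WT mice were littermates with wild-type alleles only. The WT libraries therefore carry no Cre, and effects of Cre and of the deletion cannot be told apart. PDGFRA marks most but not all cardiac fibroblasts, and the study describes activity of the Cre in some cardiac myocytes as well. The replicates are numbered 1 to 4 in each genotype, and values given in a row follow that order.

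Protein synthesis starts when eIF2 carries the initiator tRNA to the small ribosomal subunit, with eIF1, eIF1A, eIF3 and eIF5 bound to it. The eIF4F complex, made of the cap-binding protein eIF4E, the scaffold eIF4G and the helicase eIF4A, brings the mRNA to this subunit, which then scans for the start codon. The factor eIF2B recharges eIF2 with GTP, and kinases that phosphorylate eIF2 block that step under stress. In elongation, eEF1A delivers the aminoacyl-tRNAs and eEF2 moves the ribosome along the mRNA, until the release factors eRF1 and eRF3 free the finished chain. Fibroblasts make the collagen and much of the other matrix protein of the heart, and therefore use this machinery for secreted protein.

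Total counts lay between 2080555 in WT replicate 2 and 12502949 in Pdgfra-Cre:LmnaF/F replicate 4, so that a count of 1 is worth more in WT replicate 2 than elsewhere. Values are counts scaled to a library of 1000000 (CPM) with TMM factors. Differences between genotypes are fitted log2 fold changes of Pdgfra-Cre:LmnaF/F over WT, given as log2 differences with their standard error (SE). The targeted gene *Lmna* (chromosome 3, 88480147 to 88509956) lay between 274 and 483 CPM in the WT and between 90.4 and 130 CPM in the Pdgfra-Cre:LmnaF/F libraries (log2 difference -1.72, edgeR adjusted p = 0.00492). The 8 mesenchymal markers summed to between 48900 and 56400 CPM in the WT and between 42200 and 58700 CPM in the Pdgfra-Cre:LmnaF/F libraries. Pdgfra-Cre:LmnaF/F replicate 4 stood apart. Its 9 cardiomyocyte markers summed to 5904 CPM against 313 to 1037 CPM in the other 7 libraries, its 8 leukocyte markers to 393 against 37.4 to 162 CPM, and its 82 ribosomal protein genes to 52837 against 19931 to 33794 CPM. Across the genotypes, 8 of the 9 cardiomyocyte markers had a positive fold change, with a median of 1.25, and 2 had an unadjusted p under 0.05 in edgeR (*Ttn*, and *Myh7*, which was also above the WT range in Pdgfra-Cre:LmnaF/F replicates 2 and 3, with 27.9 and 61.7 CPM against at most 16.1). Of the 5 tested leukocyte markers, 4 had a positive fold change, with a median of 0.50 and 1, *Csf1r*, at that p, and 0 genes of both lists were called by edgeR. A list of 20 genes known to respond to tissue dissociation moved with the genotype. All 20 had a positive fold change, against 51.8% of all tested genes, with a smallest log2 difference of 0.13 (*Hspa8*). The edgeR test called 4 of them (*Btg2*, *Gadd45b*, *Ier3* and *Nr4a1*), where 0.407% of all tested genes were called. The list summed to between 3250 and 6530 CPM in the WT and between 9090 and 14200 CPM in the Pdgfra-Cre:LmnaF/F libraries. The 8 endothelial markers summed to between 574 and 792 CPM in the WT and between 445 and 590 CPM in the Pdgfra-Cre:LmnaF/F libraries, with 7 of 8 genes lower, 2 of them at an unadjusted p under 0.05 in edgeR (*Tek* and *Cdh5*) and 0 called. The 4 epicardial markers were all lower, with a median log2 difference of -1.05, and summed to between 8.47 and 37.2 CPM in the WT and between 6.67 and 14.3 CPM in the Pdgfra-Cre:LmnaF/F libraries. The epicardial, mural and Schwann lists had 0 genes called by edgeR and 0 at an unadjusted p under 0.05. The part of the dissociation genes, and of the cells other than fibroblasts, in the values below was not tested.

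No translation factor passed the test at an adjusted p under 0.05, and most lay slightly higher in the Pdgfra-Cre:LmnaF/F libraries. By the quasi-likelihood test of edgeR, 0 of the 65 tested factors and 0 of the 4 kinases were called, where 0.407% of all tested genes were called. The smallest adjusted p was 0.192, for *Eif1a*. The Wald test of DESeq2, which called 2.32% of all genes, called 1 factor, *Eif4a1*. With limma-voom, 138 of all 13036 tested genes and 0 members were called. At an unadjusted p under 0.05 in edgeR, 7 of 65 factors (10.8%) were reached, all 7 higher in the Pdgfra-Cre:LmnaF/F libraries, where 6.24% of all genes were reached in that direction 5.65% in the other and 11.9% in either. Of the 4 kinases, 0 reached that p in edgeR. The 7 genes were *Eif1a*, *Eif4a1*, *Eif1*, *Eif3e*, *Eif2s2*, *Eef1b2* and *Eif3i*.

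The fitted log2 fold change was above 0 for 44 of 65 factors (67.7%), against 51.8% of all tested genes. The median over the factors was 0.20, with quartiles of -0.06 and 0.40, and the median over all tested genes was 0.02, with quartiles of -0.31 and 0.37. The levels of 5 factors (7.69%) did not overlap between the genotypes and were higher in the Pdgfra-Cre:LmnaF/F libraries, where 4.06% of all genes behaved in this way. They were *Eif1a*, *Eif4a1*, *Eif1*, *Eif2s2* and *Eif2b3*. In the other direction 0 of 65 factors did not overlap, where 3.97% of all genes did so.

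**Figure D1:**
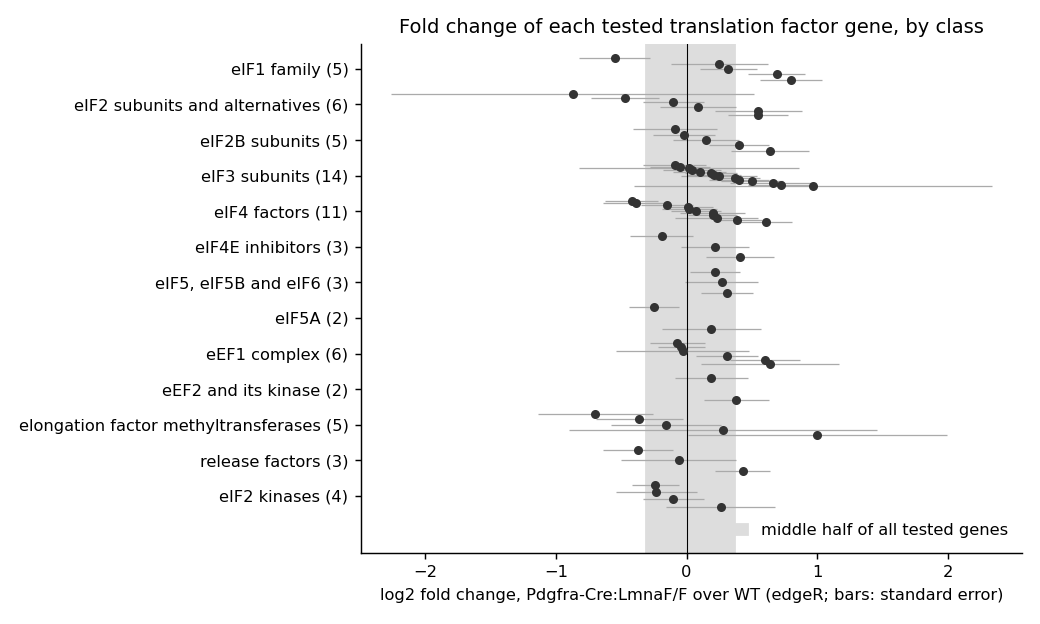
Fitted log2 fold change (Pdgfra-Cre:LmnaF/F over WT, edgeR) of each tested member on the horizontal axis, by class on the vertical axis, with the number of tested genes of the class in brackets and bars for the SE. The grey band runs between the quartiles of all 13036 tested genes, -0.31 and 0.37. Of the 14 eIF3 genes, 12 lie above 0, and *Eif2s3y* has the widest bar among the eIF2 genes.

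In the eIF1 family, whose proteins keep the scanning ribosome open and check the start codon, 4 of 5 genes had a positive fold change. *Eif1a*, the autosomal gene of eIF1A (chromosome 18, 46597701 to 46616456), had 41.6, 48.3, 29.2 and 35.6 CPM in the WT and 60.7, 76.3, 80.6 and 51.2 CPM in the Pdgfra-Cre:LmnaF/F libraries. All 4 Pdgfra-Cre:LmnaF/F values were above all WT values. This gave a log2 difference of 0.80 (SE 0.24, edgeR adjusted p = 0.192). *Eif1ax*, the X-linked gene of eIF1A, had means of 55.1 ± 5.98 and 69.1 ± 17.0 CPM (SD, n = 4) in WT and Pdgfra-Cre:LmnaF/F, and the ranges overlapped. The coding sequences of both genes are 85.6% identical over the aligned bases and share no window of 150 bases, the read length, so that reads can be told apart in principle.

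*Eif1*, the gene of eIF1 itself (chromosome 11, 100319885 to 100322096), had 107, 61.9, 84.5 and 125 CPM in the WT and 142, 140, 164 and 167 CPM in the Pdgfra-Cre:LmnaF/F libraries. The groups did not overlap, and the lowest WT value was in WT replicate 2, the library with the fewest counts. The fit gave a log2 difference of 0.69 (SE 0.22, edgeR adjusted p = 0.209). Its paralog *Eif1b* (chromosome 9, 120492232 to 120495330) had 49.1, 59.4, 67.6 and 55.6 CPM in the WT and 55.1, 47.3, 23.5 and 32.5 CPM in the Pdgfra-Cre:LmnaF/F libraries. Here the groups overlapped through Pdgfra-Cre:LmnaF/F replicate 1, with a log2 difference of -0.55 (SE 0.27, edgeR adjusted p = 0.461), or -0.36 without Pdgfra-Cre:LmnaF/F replicate 3.

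The ratio of *Eif1b* to *Eif1* counts within a library does not depend on the scaling between libraries. It was 0.458, 0.959, 0.8 and 0.445 in the WT and 0.387, 0.338, 0.143 and 0.194 in the Pdgfra-Cre:LmnaF/F libraries. Every Pdgfra-Cre:LmnaF/F ratio was below every WT ratio. The mean log2 ratio differed by -1.36 (exact two-sided permutation test, p = 0.0286, the smallest that 4 against 4 libraries can give), and p was 0.172 after Benjamini-Hochberg adjustment over the 6 paralog ratios. The coding sequences of *Eif1* and *Eif1b* are 81.1% identical and share no window of a read length. Their first 120 coding bases are shown because the ratio rests on reads that tell both genes apart. They are the spliced sense sequences of the GENCODE M21 transcripts on GRCm38, both on the plus strand, with the 19 bases that differ in capitals.
Eif1: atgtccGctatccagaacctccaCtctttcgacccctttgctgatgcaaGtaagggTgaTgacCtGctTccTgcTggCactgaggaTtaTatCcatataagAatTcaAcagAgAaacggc
Eif1b: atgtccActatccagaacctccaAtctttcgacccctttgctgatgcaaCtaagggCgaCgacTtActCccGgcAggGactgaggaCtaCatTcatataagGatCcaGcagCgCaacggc

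The other 5 paralog ratios overlapped between the genotypes. The difference in mean log2 ratio was -0.20 for *Eif4a2* to *Eif4a1* (exact permutation p = 0.2), -0.32 for *Eif4e2* to *Eif4e* (exact permutation p = 0.371), and -0.14 for *Eif4ebp2* to *Eif4ebp1* (exact permutation p = 0.6). It was 0.58 for *Eif5a2* to *Eif5a* (exact permutation p = 0.314) and 0.37 for *Gspt2* to *Gspt1* (exact permutation p = 0.343), and no adjusted p over the 6 ratios was under 0.05. With each library left out in turn, these differences lay between 0.30 and 0.97 for *Eif5a2* to *Eif5a*, 0.18 and 0.56 for *Gspt2* to *Gspt1*, -0.51 and -0.10 for *Eif4e2* to *Eif4e*, -0.27 and -0.11 for *Eif4a2* to *Eif4a1*, and -0.28 and 0.00 for *Eif4ebp2* to *Eif4ebp1*.

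Among the eIF4 factors, which bind the cap and unwind the leader of the mRNA, 8 of 11 tested genes had a positive fold change, with a median log2 fold change of 0.07. *Eif4a1*, the main eIF4A helicase (chromosome 11, 69666936 to 69672423), had 339, 305, 297 and 269 CPM in the WT and 422, 510, 553 and 365 CPM in the Pdgfra-Cre:LmnaF/F libraries. The groups did not overlap, and the closest libraries were WT replicate 1 and Pdgfra-Cre:LmnaF/F replicate 4. On the log2 scale the difference was 0.61 (SE 0.20, edgeR adjusted p = 0.209), a 1.53-fold difference. DESeq2 gave the same log2 difference with an adjusted p of 0.0426, and over the other alternatives that kept all libraries the adjusted p went up to 0.34. The paralog *Eif4a2* had 184, 144, 192 and 143 CPM in the WT and 220, 249, 216 and 185 CPM in the Pdgfra-Cre:LmnaF/F libraries. Its groups overlapped by WT replicate 3 alone, and its log2 difference was 0.39 (SE 0.19, edgeR adjusted p = 0.449).

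The scaffold gene *Eif4g3* leaned the other way. It had 210, 189, 126 and 219 CPM in the WT and 131, 153, 143 and 130 CPM in the Pdgfra-Cre:LmnaF/F libraries. WT replicate 3 was the lowest of all 8 libraries, and the other 3 WT values were above all Pdgfra-Cre:LmnaF/F values. The log2 difference was -0.42 (edgeR adjusted p = 0.451), or -0.26 with Y-linked expression as a covariate. The main scaffold gene *Eif4g1* had means of 489 ± 129 and 373 ± 102 CPM (SD, n = 4). Its log2 difference of -0.39 (edgeR adjusted p = 0.591) was -0.23 without Pdgfra-Cre:LmnaF/F replicate 4, the lowest library with 241 CPM. WT replicate 2 was the highest, with 665 CPM. *Eif4g2*, which encodes a related protein without the eIF4E-binding part, had means of 476 ± 27.4 and 480 ± 70.8 CPM (SD, n = 4). The cap-binding gene *Eif4e* had 49.3 ± 6.72 and 56.5 ± 17.4 CPM (SD, n = 4), and its relative *Eif4e2*, a repressor of translation, had 130 ± 14.1 and 117 ± 22.7 CPM (SD, n = 4). The RNA helicase cofactors *Eif4h* and *Eif4b* had log2 differences of 0.07 and 0.02. *Eif4e1b*, a germ line form, had between 0 and 13 counts in each library and was not tested.

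The 4E-binding proteins hold eIF4E away from eIF4G until mTORC1 phosphorylates them. *Eif4ebp1* had 56.4, 47.3, 30.8 and 48.8 CPM in the WT and 50.8, 50.8, 55.1 and 86.6 CPM in the Pdgfra-Cre:LmnaF/F libraries, with overlapping groups and Pdgfra-Cre:LmnaF/F replicate 4 highest. This gave a log2 difference of 0.41 (edgeR adjusted p = 0.591), which was 0.19 without that library, 0.25 without WT replicate 3 and 0.71 with Y-linked expression as a covariate. *Eif4ebp2* had 80.0, 84.5, 39.1 and 83.8 CPM in the WT and 71.1, 70.2, 103 and 89.8 CPM in the Pdgfra-Cre:LmnaF/F libraries, with a log2 difference of 0.22 (edgeR adjusted p = 0.822). Without WT replicate 3 it was 0.01, with limma-voom 0.04, and with the Y-linked covariate 0.55. *Eif4ebp3* had between 0 and 22 counts per library and was not tested.

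**Figure D2:**
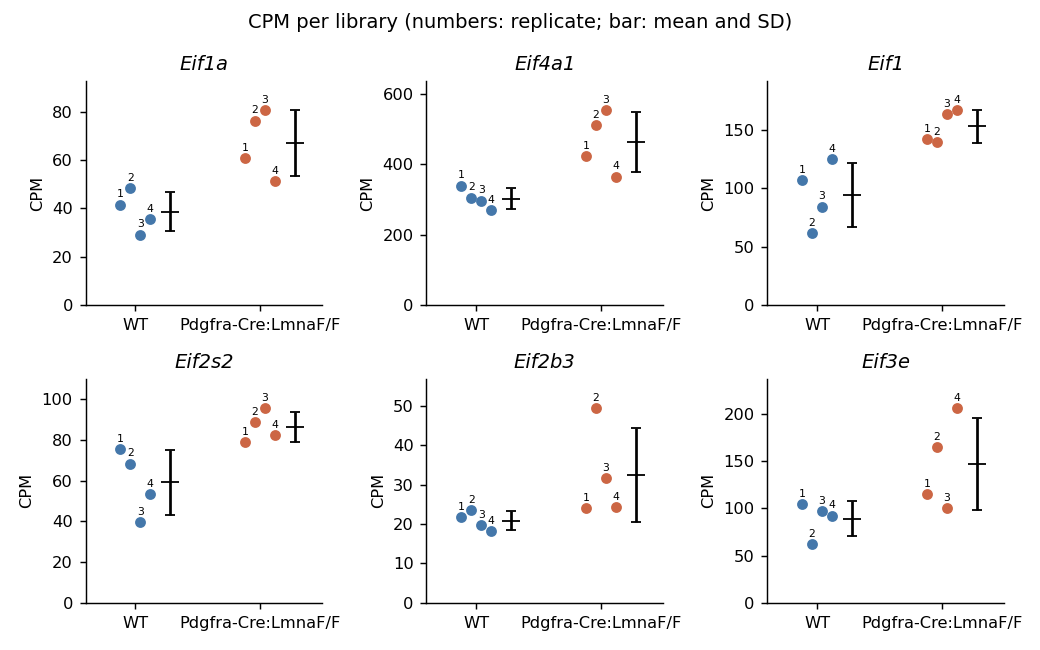
CPM in each library (vertical axes, starting at 0) of 6 members with a higher mean in the Pdgfra-Cre:LmnaF/F libraries. Points carry the replicate number, and the bars give the mean and SD of 4 libraries. In *Eif1a*, *Eif4a1*, *Eif1*, *Eif2s2* and *Eif2b3* the groups do not overlap, and in *Eif3e* they do.

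The promoters of *Eif4a1* and *Eef2* are shown because one is a leading member and the other is the member with the second highest level per length, and both hold an E-box. The E-box CACGTG, a palindrome that reads the same on both strands and is bound by MYC and related factors, was searched in windows of 250 bases before to 50 bases after the starts of RefSeq genes on GRCm38.p6. Of the 71 members, 53 had such windows, 68 in number. It was found in 22.1% of the 68 windows, in 9.62% of the 13065 windows of tested genes and in 7.15% of all 32851 windows. The cyclic AMP response element TGACGTCA, also a palindrome, was found in 1.47%, 2.85% and 1.79% of them, and the ETS motif CCGGAAG, searched on both strands, in 30.9%, 16.5% and 8.86%. Windows with a motif are a description of the sequence, and windows of 1 gene can overlap. The sequences are the 250 bases before the start, on the strand of the gene, with the E-box in capitals.
Eif4a1 (chr11:69672424-69672673, minus strand): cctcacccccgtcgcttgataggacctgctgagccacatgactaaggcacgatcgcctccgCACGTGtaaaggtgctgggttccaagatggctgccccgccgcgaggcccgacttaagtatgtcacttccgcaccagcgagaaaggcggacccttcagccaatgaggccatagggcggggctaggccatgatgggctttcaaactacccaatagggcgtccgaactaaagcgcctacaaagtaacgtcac
Eef2 (chr10:81176381-81176630, plus strand): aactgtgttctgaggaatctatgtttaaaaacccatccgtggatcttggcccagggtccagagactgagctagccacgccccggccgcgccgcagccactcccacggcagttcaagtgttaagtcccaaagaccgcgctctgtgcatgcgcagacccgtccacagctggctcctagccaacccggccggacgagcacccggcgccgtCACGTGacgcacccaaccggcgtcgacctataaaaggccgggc
The E-box starts 189 bases before the start of *Eif4a1* and 43 bases before that of *Eef2*. *Eef2* was the 1 member with the cyclic AMP response element, in capitals in the 30 bases around its start.
Eef2 start (chr10:81176619-81176648, plus strand): aaaaggccgggcgtTGACGTCAgcggtctc
Of the 5 members whose groups did not overlap, windows of *Eif4a1*, *Eif1* and *Eif2s2* were searched, and among these the E-box was in that of *Eif4a1*.

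Of the eIF2 subunits and their alternatives, 3 of 6 genes had a positive fold change. *Eif2s2*, the gene of the beta subunit (chromosome 2, 154871410 to 154892935), had 75.4, 68.4, 39.6 and 53.5 CPM in the WT and 79.0, 88.9, 95.7 and 82.3 CPM in the Pdgfra-Cre:LmnaF/F libraries. The groups did not overlap, with WT replicate 1 close below Pdgfra-Cre:LmnaF/F replicate 1. The fit gave a log2 difference of 0.55 (SE 0.23, edgeR adjusted p = 0.358). *Eif2s1*, the gene of the alpha subunit that the kinases phosphorylate, had 44.4 ± 13.0 and 47.6 ± 14.7 CPM in WT and Pdgfra-Cre:LmnaF/F (SD, n = 4). *Eif2d*, whose protein can deliver tRNA without GTP, had a log2 difference of -0.47 (edgeR adjusted p = 0.528).

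The gamma subunit, which binds GTP and the initiator tRNA, has an X-linked gene, *Eif2s3x* (chromosome X, 94188707 to 94212862), and a Y-linked gene, *Eif2s3y* (chromosome Y, 1010543 to 1028847). *Eif2s3y* had 516, 57, 2 and 283 counts in the WT and 1, 1, 1 and 690 counts in the Pdgfra-Cre:LmnaF/F libraries. WT replicates 1, 2 and 4 and Pdgfra-Cre:LmnaF/F replicate 4 thus held the Y-linked RNA, and the other 4 libraries were at or under a floor of 3 counts. The Y-linked genes *Ddx3y*, *Kdm5d* and *Uty* were likewise between 31.5 and 128 CPM in those 4 libraries and at most 1.73 CPM in the other 4. Libraries with Y-linked RNA were therefore 3 of 4 in the WT and 1 of 4 in the Pdgfra-Cre:LmnaF/F group, so that Y-linked RNA and genotype are partly confounded.

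*Eif2s3x* had 54.1, 48.3, 130 and 52.3 CPM in the WT and 118, 148, 81.2 and 73.0 CPM in the Pdgfra-Cre:LmnaF/F libraries. On the log2 scale the difference was 0.55 (SE 0.33, edgeR adjusted p = 0.552), and it was 0.23 (SE 0.24, edgeR adjusted p = 0.722) with Y-linked expression as a covariate. It was 1.02 without WT replicate 3 (edgeR adjusted p = 0.142), 0.34 without Pdgfra-Cre:LmnaF/F replicate 2 and 0.90 with limma-voom. Among the 4 libraries with Y-linked RNA, the 3 WT values lay between 48.3 and 54.1 CPM and the 1 Pdgfra-Cre:LmnaF/F value was 73.0 CPM. Among the 4 without it, the 1 WT value was 130 CPM, between the Pdgfra-Cre:LmnaF/F values of 81.2 and 148 CPM. The sum of both genes was 102, 77, 131 and 81.6 CPM in the WT and 118, 148, 81.3 and 130 CPM in the Pdgfra-Cre:LmnaF/F libraries (exact two-sided permutation test, p = 0.343). The log2 difference of *Eif2s3y* was -0.87 (edgeR adjusted p = 0.874), and with all libraries kept the alternatives gave between -5.71 (limma-voom) and -0.08 (Y-linked covariate). Without Pdgfra-Cre:LmnaF/F replicate 4, no library of that group held the Y-linked RNA, and the gene then passed the test (edgeR adjusted p = 0.0147).

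The coding sequences of *Eif2s3x* and *Eif2s3y* are 86.3% identical, with a longest identical run of 34 bases. The first 120 coding bases show how densely the differences fall, and are given because the split of the reads between both genes rests on them. They are spliced sense sequences of the GENCODE M21 transcripts on GRCm38, from the minus strand for *Eif2s3x* and the plus strand for *Eif2s3y*, with the 19 differing bases in capitals.
Eif2s3x: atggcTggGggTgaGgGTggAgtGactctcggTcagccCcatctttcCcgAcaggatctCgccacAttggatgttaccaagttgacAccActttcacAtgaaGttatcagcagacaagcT
Eif2s3y: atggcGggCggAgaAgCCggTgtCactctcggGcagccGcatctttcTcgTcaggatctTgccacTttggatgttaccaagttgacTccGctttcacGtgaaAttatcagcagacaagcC

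**Figure D3:**
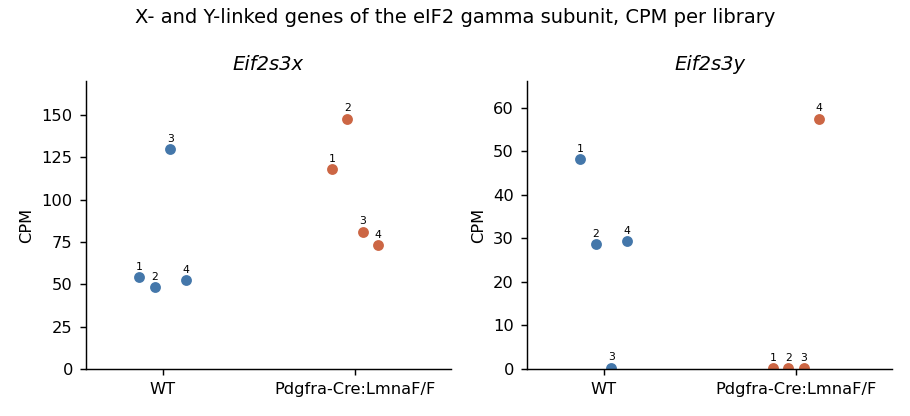
CPM in each library (vertical axes, starting at 0) of the X-linked and Y-linked genes of the eIF2 gamma subunit, with the replicate number beside each point. The 4 libraries with *Eif2s3y* between 28.7 and 57.5 CPM have between 48.3 and 73.0 CPM of *Eif2s3x*, and the other 4 have between 81.2 and 148 CPM.

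The eIF2B subunits recharge eIF2, and 3 of their 5 genes had a positive fold change. *Eif2b3*, the gene of the gamma subunit (chromosome 4, 117019402 to 117087306), had 21.8, 23.6, 19.8 and 18.2 CPM in the WT and 24.0, 49.4, 31.7 and 24.2 CPM in the Pdgfra-Cre:LmnaF/F libraries. The groups did not overlap, but 2 of the Pdgfra-Cre:LmnaF/F values were close to the highest WT value. The log2 difference was 0.64 (SE 0.30, edgeR adjusted p = 0.428), and 0.35 without Pdgfra-Cre:LmnaF/F replicate 2 (edgeR adjusted p = 0.741). *Eif2b5*, the gene of the catalytic epsilon subunit, had 59.7 ± 13.7 and 59.3 ± 12.5 CPM (SD, n = 4), with a log2 difference of -0.02.

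The 4 eIF2 kinases sense different stresses and phosphorylate the alpha subunit. *Eif2ak3*, the gene of PERK, which senses unfolded protein in the endoplasmic reticulum, had 88.6, 101, 81.5 and 87.4 CPM in the WT and 78.1, 73.0, 75.3 and 77.1 CPM in the Pdgfra-Cre:LmnaF/F libraries. The Pdgfra-Cre:LmnaF/F values were all lower, by little, and the log2 difference was -0.24 (SE 0.18, edgeR adjusted p = 0.684). This was 1 of 4 kinases without overlap, where 3.97% of all genes had lower values without overlap. *Eif2ak1*, the gene of the heme-regulated kinase HRI, had 52.8 ± 3.47 and 49.1 ± 12.2 CPM (SD, n = 4), and *Eif2ak4*, the gene of GCN2, which senses uncharged tRNA, had 21.6 ± 4.47 and 18.2 ± 2.19 CPM (SD, n = 4). *Eif2ak2*, the gene of PKR, which senses double-stranded RNA, had 18.1, 21.6, 28.8 and 22.1 CPM in the WT and 26.0, 55.4, 12 and 14.9 CPM in the Pdgfra-Cre:LmnaF/F libraries. Pdgfra-Cre:LmnaF/F replicate 2 held the highest and replicate 3 the lowest value of all 8 libraries, and the log2 difference was 0.26 (edgeR adjusted p = 0.877). It turned to -0.36 without Pdgfra-Cre:LmnaF/F replicate 2 and to -0.12 with the Y-linked covariate, and was 0.00 with the replicate block.

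Of the 14 eIF3 genes, whose proteins form the largest initiation factor, 12 had a positive fold change, with a median of 0.23. In 0 of 14 did the groups not overlap, where 4.06% of all genes were higher and 3.97% lower without overlap, so that a count of 0 is near the share of all genes. *Eif3e* (chromosome 15, 43250058 to 43282719) had 104, 61.9, 96.7 and 92.2 CPM in the WT and 115, 165, 99.8 and 206 CPM in the Pdgfra-Cre:LmnaF/F libraries. It overlapped by Pdgfra-Cre:LmnaF/F replicate 3, just below the highest WT value, and had a log2 difference of 0.72 (SE 0.25, edgeR adjusted p = 0.258). *Eif3i* had 88.5, 91.1, 104 and 116 CPM in the WT and 120, 97.4, 142 and 209 CPM in the Pdgfra-Cre:LmnaF/F libraries, with a log2 difference of 0.50 (edgeR adjusted p = 0.418), or 0.26 without Pdgfra-Cre:LmnaF/F replicate 4. In both genes Pdgfra-Cre:LmnaF/F replicate 4, the library with the most cardiomyocyte marker and ribosomal protein RNA, was the highest. This library was the highest of all 8 in 8 of the 14 eIF3 genes (57.1%) and in 19 of the 65 tested factors (29.2%), against 17.3% of all tested genes.

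The summed eIF3 genes gave 1275, 1092, 1220 and 1265 CPM in the WT and 1246, 1350, 1359 and 1891 CPM in the Pdgfra-Cre:LmnaF/F libraries. Without Pdgfra-Cre:LmnaF/F replicate 4, 11 of 14 eIF3 genes had a positive fold change, with a median of 0.19. *Eif3h* had 126, 67.9, 120 and 118 CPM in the WT and 112, 83.4, 105 and 215 CPM in the Pdgfra-Cre:LmnaF/F libraries. Its log2 difference of 0.25 became -0.12 without that library. *Eif3a*, the gene of the largest subunit, had 122 ± 10.3 and 158 ± 28.5 CPM (SD, n = 4), and there Pdgfra-Cre:LmnaF/F replicate 4 was within the WT range. *Eif3j1* and *Eif3j2* are identical over all 783 aligned coding bases, and how reads were assigned between them is uncertain. Both genes together had 12.2 ± 5.93 and 13.6 ± 6.67 CPM in WT and Pdgfra-Cre:LmnaF/F (SD, n = 4).

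Across all factors without that library, 41 of 65 had a positive fold change, against 50.2% of all genes in the same fit, and the median log2 difference was 0.13. An unadjusted p under 0.05 in edgeR was reached by 8 factors, a share near the 11.1% of all genes. Of these 8, 7 were higher in the Pdgfra-Cre:LmnaF/F libraries, namely *Eif1*, *Eif1a*, *Eif2b3*, *Eif2s2*, *Eif3a*, *Eif4a1* and *Eif4a2*, where 5.27% of all genes were higher at that p. The 1 lower gene was *Eif2s3y*. *Eif3e*, *Eif3i* and *Eef1b2* did not reach that p without the library.

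**Figure D4:**
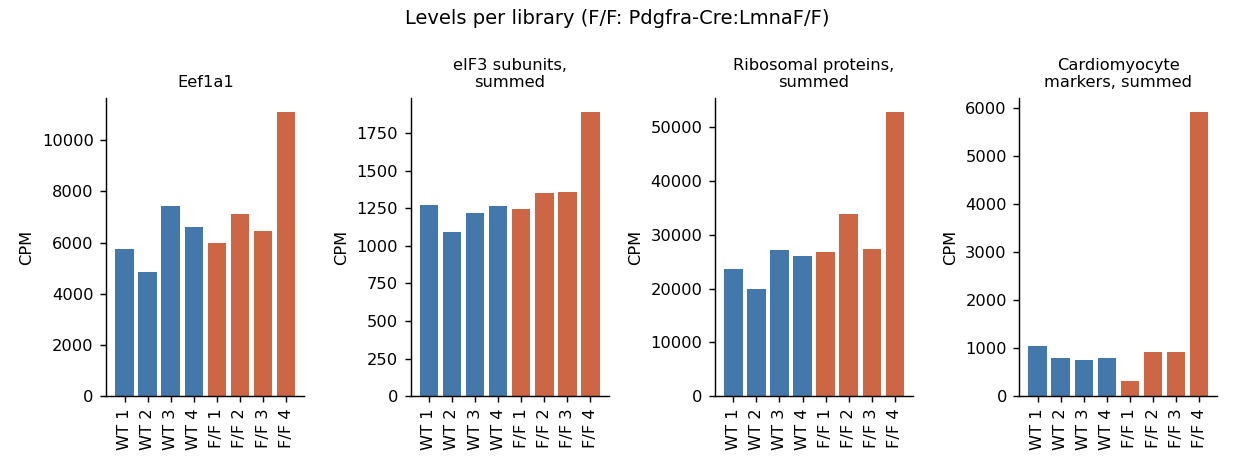
CPM in each library (vertical axes, starting at 0) of *Eef1a1*, of the summed eIF3 subunits, of 82 summed ribosomal protein genes and of 9 summed cardiomyocyte markers, with F/F for Pdgfra-Cre:LmnaF/F. Pdgfra-Cre:LmnaF/F replicate 4 is the highest bar in all 4 panels, with 5904 CPM of cardiomyocyte markers.

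The later initiation factors *Eif5*, *Eif5b* and *Eif6* all had small positive fold changes. *Eif5*, which triggers GTP hydrolysis by eIF2, had 108 ± 14.5 and 134 ± 24.6 CPM (SD, n = 4), and *Eif6*, which keeps the large ribosomal subunit apart from the small one, had 97.9 ± 16.8 and 114 ± 10.7 CPM (SD, n = 4). *Eif5a*, the gene of the hypusine-bearing factor that eases stalled elongation, had 346 ± 42.1 and 290 ± 38.4 CPM (SD, n = 4), with a log2 difference of -0.25 (edgeR adjusted p = 0.668). *Eif5a2* had 22.0, 12.6, 38.7 and 12.7 CPM in the WT and 25.5, 28.2, 28.8 and 16.2 CPM in the Pdgfra-Cre:LmnaF/F libraries, with a log2 difference of 0.19 (edgeR adjusted p = 0.908). It was 0.62 without WT replicate 3, 0.00 without WT replicate 4 and -0.16 with the Y-linked covariate.

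The elongation factors carried most of the RNA of the whole group. *Eef1a1* and *Eef2* together took between 0.65% and 1.02% of all counts in the WT and in Pdgfra-Cre:LmnaF/F replicates 1 to 3, and 1.51% in replicate 4. *Eef1a1*, the gene of eEF1A (chromosome 9, 78478449 to 78489151), had 5760, 4840, 7430 and 6590 CPM in the WT and 5990, 7110, 6440 and 11100 CPM in the Pdgfra-Cre:LmnaF/F libraries. Apart from replicate 4, the Pdgfra-Cre:LmnaF/F values lay inside the WT range, and the log2 difference was 0.31 (edgeR adjusted p = 0.690), or 0.08 without that library. *Eef2* (chromosome 10, 81176631 to 81182498) had 2440, 1960, 2920 and 2330 CPM in the WT and 1860, 2270, 2160 and 4680 CPM in the Pdgfra-Cre:LmnaF/F libraries. Its log2 difference of 0.19 (edgeR adjusted p = 0.866) turned to -0.20 without replicate 4.

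*Eef1a2*, the form of eEF1A known from muscle and neurons, had 4.48, 13.6, 18.4 and 16 CPM in the WT and 10.9, 16, 10.2 and 44.2 CPM in the Pdgfra-Cre:LmnaF/F libraries. The highest value was again in replicate 4, and the log2 difference of 0.64 (edgeR adjusted p = 0.719) became -0.08 without it. Of the exchange factor genes of eEF1A, *Eef1b2* had 149, 97.1, 168 and 120 CPM in the WT and 159, 190, 134 and 328 CPM in the Pdgfra-Cre:LmnaF/F libraries. Its log2 difference was 0.60 (edgeR adjusted p = 0.405), and 0.26 without replicate 4. *Eef1g* was among the steadiest members, with 368 ± 27.0 and 359 ± 20.2 CPM (SD, n = 4), and *Eef1d* had 191 ± 42.9 and 182 ± 27.6 CPM (SD, n = 4). *Eef2k*, the kinase that inhibits eEF2, had 37.6, 40.8, 26.4 and 45.2 CPM in the WT and 63.1, 45.0, 43.1 and 44.3 CPM in the Pdgfra-Cre:LmnaF/F libraries, with a log2 difference of 0.38 (edgeR adjusted p = 0.598). It was 0.23 without Pdgfra-Cre:LmnaF/F replicate 1, the highest library, and 0.24 without WT replicate 3, the lowest.

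The 5 methyltransferase genes of the elongation factors had the lowest summed CPM of all classes with more than 4 genes. *Eef1akmt1* had 17.9, 15.1, 18.1 and 18.2 CPM in the WT and 16.9, 13.0, 3.91 and 9.08 CPM in the Pdgfra-Cre:LmnaF/F libraries, with a log2 difference of -0.70 (SE 0.44, edgeR adjusted p = 0.593), or -0.42 without Pdgfra-Cre:LmnaF/F replicate 3. Of the release factors, *Etf1*, the gene of eRF1, had 102, 103, 123 and 73.2 CPM in the WT and 119, 115, 165 and 139 CPM in the Pdgfra-Cre:LmnaF/F libraries. WT replicate 3 alone reached into the other group, and the log2 difference was 0.43 (SE 0.21, edgeR adjusted p = 0.451). *Gspt1*, the gene of eRF3, had 76.1 ± 15.6 and 58.8 ± 22.8 CPM (SD, n = 4), and its paralog *Gspt2* had 10.1 ± 1.63 and 9.74 ± 1.78 CPM (SD, n = 4).

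Levels of different genes can be compared per length, as CPM per kilobase of annotated exon. In the WT, *Eef1a1* had 2470 ± 446 and *Eef2* 725 ± 119 CPM per kilobase (SD, n = 4), far above the next members. *Eif5a* with 146 ± 17.7 and *Eef1g* with 142 ± 10.4 CPM per kilobase did not differ beyond their spread. They were followed by *Eif4h* with 77.8 ± 13.5 and *Eif4a1* with 69.8 ± 6.64 CPM per kilobase, which were again within their spread in the WT. In the Pdgfra-Cre:LmnaF/F libraries *Eif4a1*, with 107 ± 19.6 CPM per kilobase, had a higher mean than *Eif4h*, with 81.5 ± 5.53, although the order was the reverse in replicate 4. The lowest WT means of the tested members were those of *Eif3j2*, with 0.543 ± 0.858, and *Eef1akmt3*, with 0.934 ± 0.747 CPM per kilobase. They did not differ beyond their spread, and were 1.10 and 1.09 in the Pdgfra-Cre:LmnaF/F libraries. The *Eif3j2* level also depends on how reads were assigned between it and *Eif3j1*.

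**Figure D5:**
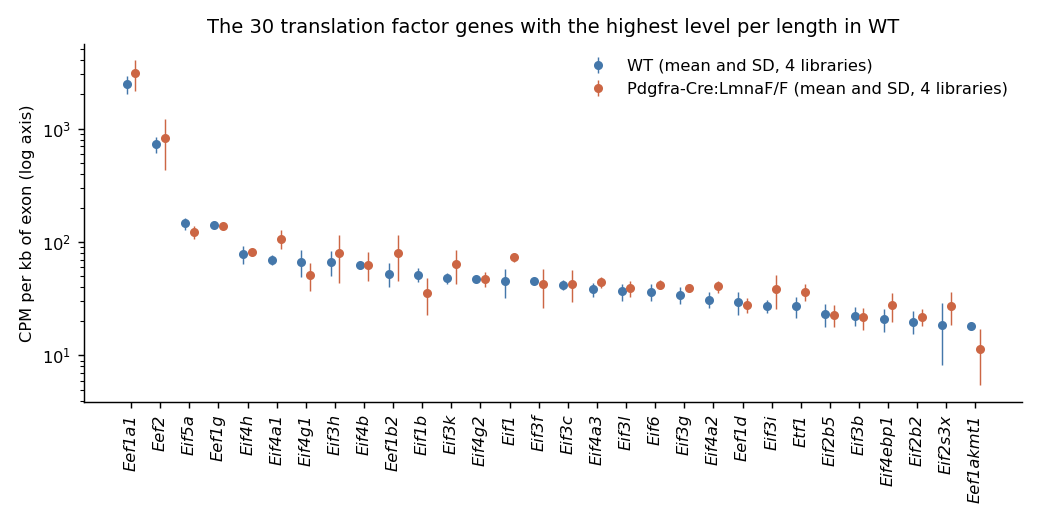
Mean level and SD of 4 libraries in each genotype, as CPM per kilobase of exon on a log axis, of the members with the highest level per length in the WT, in descending order. *Eef1a1* and *Eef2* lie above all others, and further down the WT values of most neighbours differ by less than the larger of their SDs.

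In 7 lists of related genes, 0 genes were called by edgeR, and the counts at an unadjusted p under 0.05 stand beside 11.9% of all genes. DESeq2, which called 2.32% of all tested genes, called *Ddx3x*, *Rps6* and *Ppp1r15a*. Of all 13036 tested genes limma-voom called 138, and in these lists it called *Ddx3x*. Of 15 tested partners and regulators of eIF4F, 11 had a positive fold change, with a median log2 fold change of 0.17, and 2 reached an unadjusted p under 0.05. One was *Ddx3x*, an X-linked RNA helicase that helps structured leaders through, with 283, 225, 283 and 233 CPM in the WT and 408, 520, 593 and 312 CPM in the Pdgfra-Cre:LmnaF/F libraries. The groups did not overlap, and the log2 difference was 0.84 (SE 0.22, edgeR adjusted p = 0.134). In the Pdgfra-Cre:LmnaF/F group its lowest value was in replicate 4, the library with Y-linked RNA, and with Y-linked expression as a covariate the difference was 0.65 (edgeR adjusted p = 0.224). Without that library it was 0.98 and passed the test (edgeR adjusted p = 0.0368). Of 21 genes of the mTORC1 pathway, 12 had a positive fold change, with a median of 0.03 and 4 at an unadjusted p under 0.05. *Rps6*, a ribosomal protein phosphorylated downstream of mTORC1, had a log2 difference of 0.68 (edgeR adjusted p = 0.198). Its groups overlapped, with 411 CPM in Pdgfra-Cre:LmnaF/F replicate 1 and 415 CPM in WT replicate 3. Its highest value was 715 CPM in Pdgfra-Cre:LmnaF/F replicate 4, and the difference was 0.55 without that library (edgeR adjusted p = 0.293). *Sesn1*, an inhibitor of the pathway, had 362 CPM in Pdgfra-Cre:LmnaF/F replicate 4 and at most 73.2 CPM elsewhere. The others were *Rheb*, the GTPase that activates mTORC1, with a log2 difference of 0.49 (edgeR adjusted p = 0.401), and *Rptor*, the scaffold of the complex, with -0.70 (edgeR adjusted p = 0.420), so that the 4 genes did not share a direction.

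Of 19 target genes of the integrated stress response, the program that follows phosphorylation of eIF2, 10 had a positive fold change, with a median of 0.11 and 3 at an unadjusted p under 0.05. *Ppp1r15a*, which encodes the phosphatase subunit GADD34 that reverses this phosphorylation, had 79.8, 32.2, 78.8 and 83.3 CPM in the WT and 120, 119, 117 and 167 CPM in the Pdgfra-Cre:LmnaF/F libraries. The groups did not overlap, and the log2 difference was 0.92 (SE 0.27, edgeR adjusted p = 0.175). The others were *Vldlr*, with a log2 difference of 0.67 (edgeR adjusted p = 0.241), and *Mthfd2*, an enzyme of mitochondrial folate metabolism, with -1.35 (edgeR adjusted p = 0.401), so that the 3 genes did not share a direction.

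Of the 9 enzymes that make hypusine on eIF5A and diphthamide on eEF2, 5 had a positive fold change, with a median of 0.26 and 1 at an unadjusted p under 0.05, *Dph5* with a log2 difference of 1.33 (edgeR adjusted p = 0.305). Of 13 genes of ribosome recycling, re-initiation and rescue, 9 had a positive fold change, with a median of 0.16 and 0 at an unadjusted p under 0.05 in edgeR. Of 22 cytosolic aminoacyl-tRNA synthetase genes, 9 had a positive fold change, with a median of -0.02 and 0 at that p in edgeR. The 10 mitochondrial translation factors were split evenly, 5 and 5, with a median of 0.02, and 2 reached that p, *Mtrf1l* with a log2 difference of 0.82 and *Tufm*, the mitochondrial counterpart of eEF1A, with -0.73 (edgeR adjusted p of 0.398 and 0.400).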

How the data were processed

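The authors sequenced strand-specific, ribosomal RNA-depleted libraries from RNA with an integrity number above 8 as 150 bp paired-end reads, aligned them to mm10 with HISAT2 and counted them on GENCODE genes with featureCounts. The deposited values are unscaled counts, as whole numbers for each symbol in each library. Their methods name RUV normalization before DESeq2, and RUV and DESeq2 were used here only as alternatives. The 18957 listed genes had at least 4 counts over the 8 libraries.

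The counts were fitted with edgeR 4.0.16 in R 4.3.3 (filterByExpr, TMM factors, quasi-likelihood test with genotype as the only term, Benjamini-Hochberg adjustment over 13036 genes, threshold 0.05). CPM are TMM-scaled and SD is over libraries. Exact two-sided permutation tests over 70 assignments compared the paralog ratios in Python 3.11.15. The edgeR, limma-voom and DESeq2 fits were also run on simulated counts, and the permutation tests were not. Depths and the floor of 3 counts cover counting error only. With 1 mouse per library, p-values measure the spread between mice.

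Alternatives were DESeq2 1.42.0, limma 3.58.1 (voom with quality weights), RLE factors, no filter, at least 10 counts in every library, the replicate block, 1 RUVr factor, Y-linked expression as a covariate, and leaving out each library. The members and lists were chosen with earlier results of these data known. The genes named were the 12 members with the lowest p, in each class the member with the lowest p and the one with the highest level per length, the kinases, the paralogs of the ratios and the members not tested, and in each related list genes among the 3 with the lowest p. Other members given as means, *Eef1a2*, *Eif1ax*, *Eif2d*, *Eif4b*, *Eif4h*, *Rptor*, the single marker genes and the sum of the *Eif3j* genes were chosen after their values were seen. Promoter windows are from RefSeq, and annotation and coding sequences from GENCODE M21.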

Additional observations from a re-analysis of the deposited data

Results flagged for a closer look

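In 74 groups of 4 libraries, the highest or lowest library of 9 stood further from its nearest neighbour than the 95% limit of Dixon's test. Chance alone gives about 1 in 20 groups. In the Pdgfra-Cre:LmnaF/F group, replicate 4 was the far library for *Eef2* with 4680 CPM, *Eif4ebp1* with 86.6 CPM, *Eif2s3y* with 57.5 CPM and *Eif4ebp3* with 1.83 CPM, and replicate 1 for *Eef2k* with 63.1 CPM, each time as the highest. In the WT group, replicate 3 was the highest for *Eif2s3x* with 130 CPM and the lowest for *Eif4ebp2* with 39.1 CPM. WT replicate 2 was the lowest for *Eif3h* with 67.9 CPM and for *Eef1akmt1* with 15.1 CPM.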

How the results depend on the processing

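The number of translation factors called was 0 except with DESeq2, which called 1 (*Eif4a1*, 0.61, adjusted p = 0.0426), and without Pdgfra-Cre:LmnaF/F replicate 4, which gave 1 (*Eif2s3y*, log2 fold change -7.76). Over all genes, 53 were called, against 303 with DESeq2, 138 with limma-voom, 274 without a filter, 82 with 1 RUVr factor, 114 with the Y-linked covariate, and 13 to 76 with a library left out. Leaving out WT replicate 1, 2 or 4 gave 24, 24 and 13, and Pdgfra-Cre:LmnaF/F replicate 2 or 3 gave 26 and 17. The median log2 fold change of the factors was 0.12 with limma-voom and 0.13 to 0.23 with a library left out. With the replicate block, 36 genes and 0 factors were called. Deviations from the group mean correlated between -0.03 and 0.04 for libraries with the same number and between -0.034 and 0.038 for the others. With 4 libraries per group, this cannot tell whether the number marks pairs, and the labels do not say so. The *Eif1b* to *Eif1* difference stayed at -1.36 with the block (exact p = 0.125, the smallest sign flips can give) and lay between -1.58 and -1.10 with a library left out (exact p = 0.0571, the smallest possible there). Among the genes named by rule, the log2 fold change changed sign for *Eif2b5* (0.01 with limma-voom), and with the Y-linked covariate for *Eif2ak2* (-0.12), *Eif5a2* (-0.16) and *Gspt2* (0.06). With a library left out, the range crossed or reached 0, among the same genes and the ratios, for *Eif2b5* (-0.14 to 0.12), *Eif3h* (-0.12 to 0.40), *Eef2* (-0.20 to 0.33), *Eif2ak1* (-0.21 to 0.02), *Eif2ak2* (-0.36 to 0.50), *Eif5a2* (0.00 to 0.62), *Gspt2* (-0.18 to 0.06), *Eif4e* (-0.02 to 0.34) and the *Eif4ebp2* to *Eif4ebp1* ratio (-0.28 to 0.00). The cause was not tested in any of these. Other members with small or poorly determined differences also changed sign, among them *Eef1akmt3* (-1.60) and *Eif4enif1* (0.04) with the covariate and *Eef1a2* (-0.08) and *Eif3c* (-0.20) without Pdgfra-Cre:LmnaF/F replicate 4. *Lmna* lay between -1.84 and -1.56 with a library left out and between -1.91 and -1.57 under the other alternatives.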
